A study of Mus musculus with 2 samples.

Results

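The mouse family of miR-103 and miR-107 has 3 loci, Mir107, Mir103-2 and Mir103-1, each inside a gene for a pantothenate kinase (Pank1, Pank2 and Pank3). They were found by the Ensembl identifiers that the mouse annotation gives these names, and all 3 were among the 1973 miRNA rows of both deposited tables. The libraries were microRNA sequencing libraries of total RNA from the forebrain of B6NCrl mice on postnatal day 0, and form 1 group of 2 single animals, pup 3 (replicate 2) and pup 1 (replicate 1). The labels give no transgene or treatment for either pup, both have the same donor entry, the sex was not collected, and the RNA carries a size limit of under 30 with no unit. There was no condition to compare. The values below are therefore each locus's level in each pup, the order of the loci, and the difference between the 2 libraries.

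MicroRNAs are short RNAs cut from hairpin precursors, and they repress messenger RNAs that match their seed (bases 2 to 8 of the mature strand). The 3p arm of these hairpins is the known guide strand of the family. In mice miR-103 and miR-107 are known to reduce insulin sensitivity through caveolin-1, and in human cells miR-107 represses the secretase BACE1, and both miRNAs repress the miRNA-processing enzyme Dicer. Pantothenate kinases carry out the first committed step of coenzyme A synthesis, and a miRNA in an intron of such a gene can be cut from the transcript of its host.

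The hairpins are shown whole because their shared stretches decide which reads could be assigned to a locus. They are RefSeq sequences of GRCm38.p6, identical to the GENCODE hairpins, with the mature arms in capitals (5p first, then 3p).
Mir107: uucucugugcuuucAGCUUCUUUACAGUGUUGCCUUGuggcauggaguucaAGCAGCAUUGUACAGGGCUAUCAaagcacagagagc
Mir103-2: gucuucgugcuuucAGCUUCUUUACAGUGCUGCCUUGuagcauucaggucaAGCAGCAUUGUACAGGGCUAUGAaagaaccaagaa
Mir103-1: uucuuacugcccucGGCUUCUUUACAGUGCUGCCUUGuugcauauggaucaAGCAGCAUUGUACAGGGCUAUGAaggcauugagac

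The mature arms are nearly the same at the 3 loci, here with the seed in capitals.
miR-107-3p: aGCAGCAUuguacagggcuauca
miR-103-3p (identical from Mir103-2 and Mir103-1): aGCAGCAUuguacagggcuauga
miR-107-5p: aGCUUCUUuacaguguugccuug
miR-103-2-5p: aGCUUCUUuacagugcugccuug
miR-103-1-5p: gGCUUCUUuacagugcugccuug
Positions are counted from 1 at the 5′ end of the arm. From miR-103-3p to miR-107-3p the only change is G22C, and the other 22 of 23 bases are the same. From miR-103-2-5p the change to miR-103-1-5p is A1G, and the change to miR-107-5p is C16U. The seed GCAGCAU was held by 3 of 1738 RefSeq mature arms of the mouse, and the 5p seed GCUUCUU by 3, in both cases those of this family.

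Mir107 (ENSMUSG00000065594.1) lies on chromosome 19 from 34820687 to 34820773 on the minus strand, in intron 5 of Pank1. Mir103-2 (ENSMUSG00000065563.1) lies on chromosome 2 from 131288052 to 131288137 on the plus strand, in intron 5 of Pank2. Mir103-1 (ENSMUSG00000065553.1) lies on chromosome 11 from 35782396 to 35782481 on the plus strand, in intron 5 of Pank3. Coordinates are those of GRCm38, the assembly that the files name as mm10. Each host has 7 exons in its principal transcript, and each hairpin lies on the strand of its host, between exons 5 and 6. The paralogous positions kept the intron number but not its size: the intron is 7282 bases long in Pank1, 5801 in Pank2 and 1740 in Pank3. The hairpin starts 326 bases after the upstream exon in Pank1, 454 in Pank2 and 688 in Pank3. No annotated transcript of the hosts has an exon over a hairpin, and each host holds 1 annotated miRNA gene. Pank4, the fourth gene of the family by name, holds 0.

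**Figure D1:**
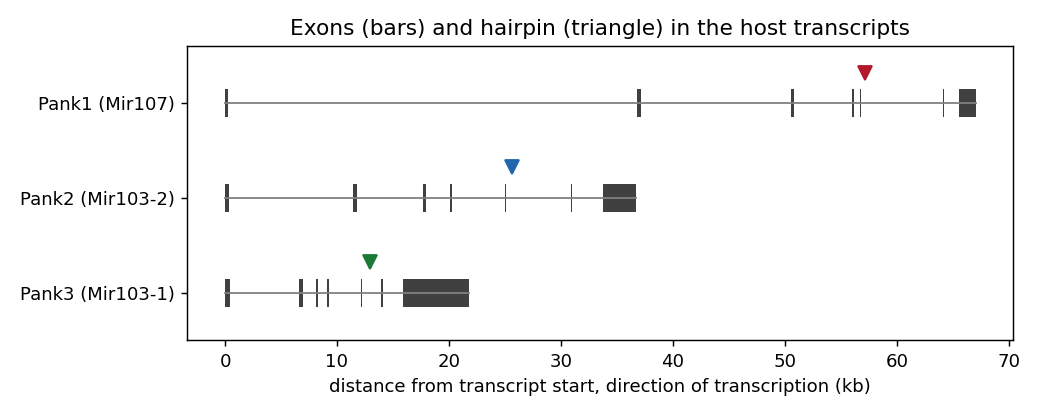
Principal transcripts of the 3 host genes, drawn from the transcript start in kilobases in the direction of transcription, with exons as bars and the miRNA hairpin as a triangle. Each triangle stands between the fifth and the sixth of 7 exons, and the intron around it is 7282 bases long in Pank1, 5801 in Pank2 and 1740 in Pank3.

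Mir107 was the abundant locus of the family, Mir103-2 stood more than 50-fold below it, and Mir103-1 was at the edge of detection. Mir107 had 3553 counts in pup 3 and 5772 in pup 1. Scaled to a common total (CPM, counts per 1000000 gene-strand counts) the level was 1464 in pup 3 and 2104 in pup 1, and the exact Clopper-Pearson intervals at 95% ran from 1416 to 1513 in pup 3 and from 2051 to 2159 in pup 1. Pup 3 was the lower one, with intervals that do not overlap, and the mean was 1784 ± 453 CPM (SD, n = 2), or 0.178% ± 0.0453 of all counts at miRNA loci.

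Mir103-2 had 63 counts in pup 3 and 97 in pup 1, or 26.0 CPM (19.9 to 33.2) and 35.4 CPM (28.7 to 43.1). Its intervals overlap, and its mean was 30.7 ± 6.65 CPM (n = 2). Mir103-1 had 7 counts in pup 3 and 9 in pup 1, or 2.88 CPM (1.16 to 5.94) and 3.28 CPM (1.5 to 6.23). With under 10 counts in each library it did not reach the level called detected (at least 10 counts in both), which 331 of the 1973 loci reached, Mir107 and Mir103-2 among them. These intervals cover counting error only, since reads copied by PCR from the same molecule were not collapsed as far as the labels say.

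**Figure D2:**
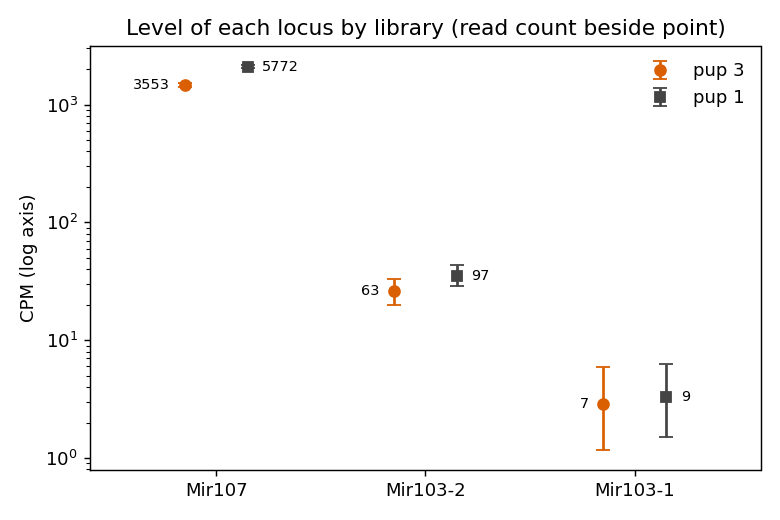
Level of each locus in CPM on a log axis, with pup 3 as circles and pup 1 as squares, 95% exact Clopper-Pearson intervals as bars and the read count beside each point. Mir107 stands at 1464 and 2104 CPM, Mir103-2 at 26.0 and 35.4 CPM, and Mir103-1 at 2.88 and 3.28 CPM, in the same order in both pups.

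The order Mir107, Mir103-2, Mir103-1 was the same in both pups and exceeded counting error in each. Mir107 exceeded Mir103-2 by 56.4-fold in pup 3 (95% exact interval 44.0 to 73.6) and by 59.5-fold in pup 1 (48.7 to 73.5). Mir103-2 exceeded Mir103-1 by 9.00-fold in pup 3 (4.12 to 23.3) and by 10.8-fold in pup 1 (5.45 to 24.3). Mir107 held 98.1% of the family's 3623 counts in pup 3 (97.6 to 98.5%) and 98.2% of its 5878 counts in pup 1 (97.8 to 98.5%). The fold between each pair of loci did not pass a test of difference between the pups. Over 3 pairs, two-sided Fisher's exact tests on the reads of these libraries gave the same adjusted p of 0.792. The quotient of pup 3 over pup 1 was 0.948 for Mir107 over Mir103-2 (95% interval 0.681 to 1.33) and 0.835 for Mir103-2 over Mir103-1 (0.262 to 2.79), so a change of more than 2-fold in the last of these is within its interval.

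These folds are between rows of uniquely placed reads, not between mature miRNAs, and adapter ligation favours some sequences over others. Reads with several mapping positions went to a row of their own. There were 2596301 of them in pup 3 (44.1% of all reads) and 2810170 in pup 1 (42.2%), or 717 and 478 for each count of the whole family. They come from the whole library, and how many of them belong to this family is not known. Against all other miRNA hairpins of the annotation, on both strands and without a mismatch, a read that starts at the first base of miR-103-3p has to be 25 bases long before it tells Mir103-2 from Mir103-1. The annotated arm is 23 bases long, so a full-length miR-103-3p read has at least those 2 places of origin. A read of miR-107-3p is unique from 22 bases on, through the base at position 22, and up to 21 bases it is also a piece of miR-103-3p. On the 5p arm, a read is unique from 16 bases for Mir107 and Mir103-2 and from 10 bases for Mir103-1. With 1 mismatch allowed, the lengths become 27 bases for every 3p arm and 25 for every 5p arm, longer than any annotated arm of the family. The number of mismatches allowed in the authors' alignment is not given in the sources used here. The level of mature miR-103-3p therefore cannot be read from these tables, and the counts of Mir103-2 and Mir103-1 do not show that it was low.

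The hairpins share more than the arms. Mir107 and Mir103-2 are identical at 73 of 87 aligned positions (83.9%), Mir107 and Mir103-1 at 70 of 87 (80.5%), and Mir103-2 and Mir103-1 at 69 of 86 (80.2%). The longest run that Mir103-2 and Mir103-1 have in common is 27 bases, against 24 for either with Mir107. The computed folding energy (RNAfold) was lowest for Mir107, at -41.2 kcal/mol, against -35.8 for Mir103-1 and -31.8 for Mir103-2. Its relation to the counts was not tested. The GC content was 47.1% in Mir107, 45.3% in Mir103-2 and 47.7% in Mir103-1.

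Other loci with a copied arm covered a wide range of levels. Of the rows, 858 matched RefSeq hairpins and arms. In 54 of them some annotated arms, but not all, occur in another hairpin, as in Mir103-2 and Mir103-1, and 33 of these 54 (61.1%) were detected. Of those 54 loci, 26 stood above Mir103-2 and 34 above Mir103-1, and the highest was Mir128-1, with 11051 CPM. Mir107 belongs to the 762 loci with no arm found elsewhere, of which 247 (32.4%) were detected and 65 stood above it. In the 42 loci whose every annotated arm occurs elsewhere, 7 (16.7%) were detected. Detected loci had a median of 143.7 CPM where some arms are copied, 170.2 CPM where every arm is, and 240.9 CPM where none is. By hairpins, 929 loci share a run of at least 20 bases with another, the 3 of the family among them, and 8.07% of these were detected. The share was 26.5% in the 965 loci without such a run, while 331 of all 1973 rows were detected. This split covers 1894 named loci and not only the 858 matched to RefSeq, so its shares cannot be set against those by arms.

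An identical arm held by exactly 2 matched loci, both with counts in both pups, gave 21 pairs of loci. Mir103-2 and Mir103-1 differed by 9.95-fold in mean level, against a median of 3.49-fold over the 21 pairs, and 4 pairs differed more. Their summed level, 33.7 CPM, was above that of 4 pairs, with a median of 537 CPM. The seed relatives Mir16-1 and Mir16-2 also share a full mature arm, and they had 4255 ± 415 and 739 ± 78.9 CPM (n = 2), a difference of 5.76-fold. These values describe 2 animals and were given no test.

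**Figure D3:**
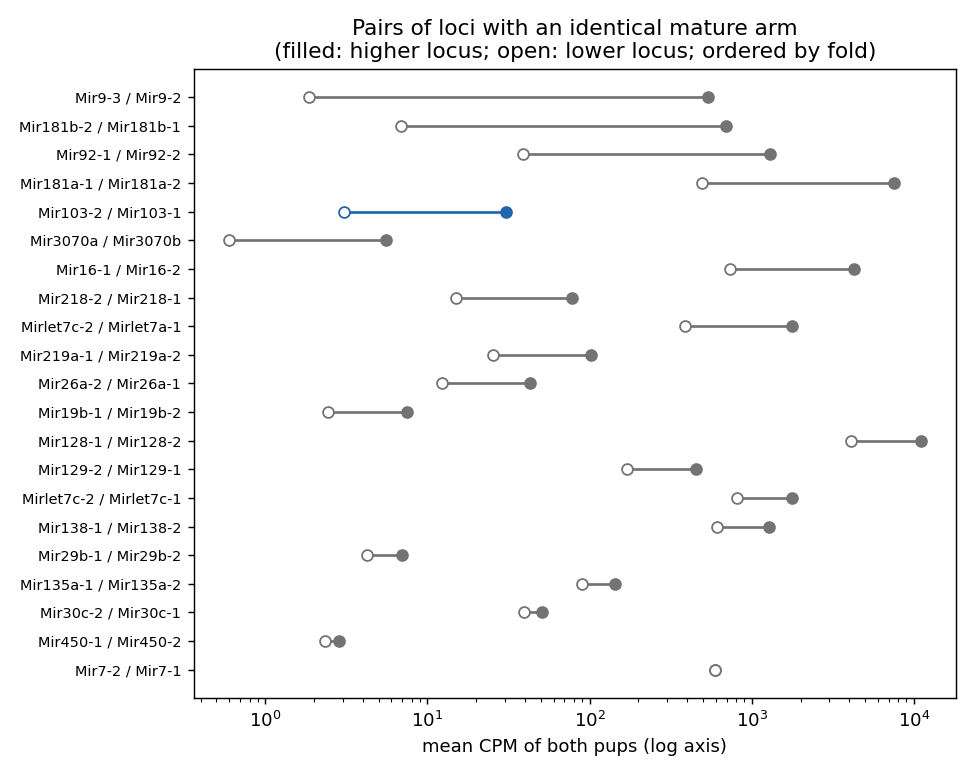
Mean CPM of both pups on a log axis for 21 pairs of loci with an identical mature arm, ordered by the fold between them, with the higher locus filled and the lower open. The pair Mir103-2 and Mir103-1, in blue, spans 30.7 to 3.08 CPM, and 4 pairs above it span a wider range.

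In the order of all loci, each member had neighbours with means within 1 SD of its own. That SD is over 2 pups, and whether neighbours differ in a single library was not tested. By mean level Mir107 had rank 80, Mir103-2 rank 261 and Mir103-1 rank 361 of 1973, and Mir107 stood 151-fold below Mir99a, the highest locus. The means of 18 other loci lay within 1 SD of that of Mir107, of 14 within 1 SD of that of Mir103-2, and of 16 within 1 SD of that of Mir103-1. The next locus above Mir107 was Mir101b (1793 ± 243 CPM) and the next below was Mirlet7c-2 (1778 ± 352 CPM). The 3 loci nearest to Mir107 in level over both libraries, by the distance of log2(CPM + 1), were Mir34c (distance 0.0529), Mir18 (0.169) and Mir101b (0.177). Mir34c, a miRNA of multiciliated cells, had 1429 CPM in pup 3 and 2163 in pup 1. Nearest to Mir103-2 were Mir574 (0.140), Mir302a (0.152) and Mir493 (0.165), and nearest to Mir103-1 were Mir7083, with the same counts, Mir6934 (0.118) and Mir199a-2 (0.128). Likeness over 2 libraries is a description of level and nothing more.

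**Figure D4:**
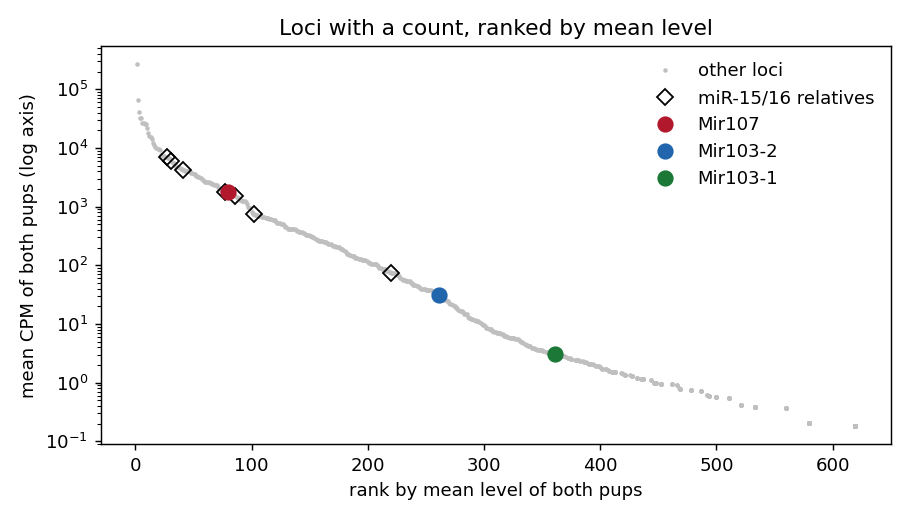
Mean CPM of both pups on a log axis against rank, for every locus with a count, with the family as filled circles and relatives of the miR-15/16 group with at least 10 summed counts as open diamonds. Mir107 at rank 80 lies among the relatives, while Mir103-2 at rank 261 and Mir103-1 at rank 361 lie below all 7 of them.

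Mir107 was lower in pup 3, as were many other loci. Its log2 ratio of pup 3 over pup 1, of CPM + 1, was -0.52 (95% exact interval -0.58 to -0.46). Intervals of log2 ratios are given for the ratio without the added 1. Mir107 passed a two-sided Fisher's exact test of its counts against all remaining counts (Benjamini-Hochberg adjusted over 400 loci with at least 10 summed counts, p = 1.4e-65). Each side is 1 animal, so this test compares 2 libraries and not conditions, and it has no replicate check. It called 56.5% of the 400 loci, 46.2% lower and 10.2% higher in pup 3, so the call is not particular to Mir107. The median log2 ratio of the tested loci was -0.31, which puts Mir107 0.21 below it, and 30.5% of tested loci had a lower ratio. The difference between the pups gave Mir107 a coefficient of variation of 25.4%. The common biological coefficient of variation that edgeR estimated over loci was 25.2%. That estimate used library totals without TMM factors, so it includes any shift in scale between the libraries.

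With DESeq2 size factors, which put the median of the tested loci at -0.02, Mir107 was still lower in pup 3, at -0.21 (exact binomial test, adjusted p = 3.11e-11). That scale called 45.2% of loci, 20.8% lower in pup 3. The TMM scale of edgeR called 46.5% of loci, and on it Mir107 had -0.27 (exact binomial test, adjusted p = 2.56e-18). Mir103-2 had a log2 ratio of -0.43 (-0.93 to 0.03) and did not pass Fisher's exact test (adjusted p = 0.0926). Mir103-1 had -0.14 (-1.85 to 1.41) and did not pass either (adjusted p = 1). A difference of the size seen at Mir107 and a difference of 0 both lie within the intervals of the Mir103 loci, so neither locus is shown to differ from Mir107 or to be alike in both pups. At a like depth, Mir574 (57 counts in pup 3 and 96 in pup 1, -0.56) and Mir493 (64 and 109, -0.57) passed, while Mir302a (60 and 88, -0.36) did not. The 3 loci of the family had 0 counts on the opposite strand in either pup, which allows up to 1.24 CPM in pup 3 and 1.09 CPM in pup 1.

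**Figure D5:**
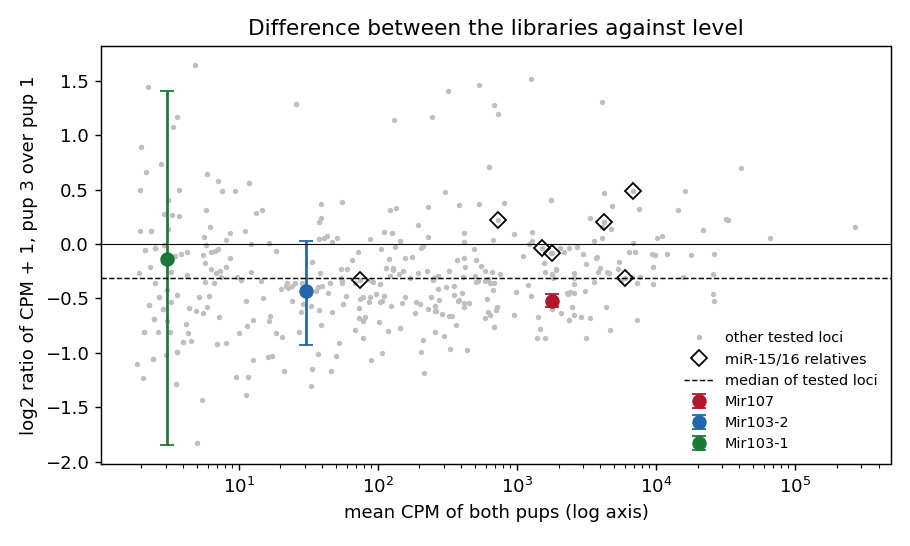
Log2 ratio of CPM + 1, pup 3 over pup 1, against the mean CPM of both pups on a log axis, for the 400 tested loci, with 95% exact intervals on the family and a dashed line at the median of -0.31. Mir107 at -0.52 has a short interval below the dashed line, while the intervals of Mir103-2 and Mir103-1 span the dashed line and 0. The intervals are of the ratio without the added 1.

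Relatives of the family by sequence differed between the pups in both directions. Most of the miR-15/16 relatives begin with the same letters 1 base later, so that their seed AGCAGCA is bases 1 to 7 of miR-103-3p and miR-107-3p. Mir503 and Mir497b are in the list without an arm of that exact seed. The leading relatives show the shift (RefSeq, GRCm38.p6), with the seed in capitals.
miR-15a-5p: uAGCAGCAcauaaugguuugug
miR-322-5p: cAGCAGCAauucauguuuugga
miR-16-5p: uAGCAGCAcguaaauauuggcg
Of 12 names in this list, 10 had a row and 7 had enough counts to be tested: 3 were higher in pup 3, 3 were lower and 1 did not pass, against 10.2% higher and 46.2% lower over all 400 tested loci. Their median log2 ratio was -0.04, against -0.31 over all tested loci. Mir15a, a cell cycle repressor, had 8063 CPM in pup 3 and 5762 in pup 1 (log2 ratio 0.48, adjusted Fisher's exact p = 3.27e-218). Mir16-1 and Mir16-2 were also higher, at 0.20 and 0.22. Mir322, Mir503 and Mir195a were lower, at -0.32, -0.33 and -0.08, and Mir15b did not pass at -0.04. Each of the 7 ratios lay above that of Mir107. The 7 loci are not separate units: Mir15b and Mir16-2 share the host Smc4, and Mir15a and Mir16-1 lie next to each other on chromosome 14. Mir322 and Mir503, both among the lower ones, are both on chromosome X. With DESeq2 size factors 5 of the 7 were higher in pup 3, 0 were lower and 2 did not pass, against 24.5% higher and 20.8% lower over all loci, and the list's median was 0.28, against -0.02. Mir195b and Mir6419 had no count, and Mir497b had 0 in pup 3 and 1 in pup 1.

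A list of 20 other miRNAs inside protein-coding genes was drawn up for the brain, but it includes Mir126a, which is also on the blood vessel list. In it 4 were higher in pup 3 (Mir126a, Mir93, Mir128-1 and Mir128-2), 11 lower and 5 did not pass. Over all tested loci 10.2% were higher and 46.2% lower. The list's median log2 ratio was -0.24. With DESeq2 size factors 10 were higher, 4 lower and 6 did not pass, beside 24.5% and 20.8% of all loci, and the median was 0.08. Of these 20 loci, 3 had a lower ratio than Mir107: Mir153 in Ptprn2 (-0.87), Mir218-2 in Slit3 (-0.71) and Mir33 in Srebf2 (-0.55). Mir93, Mir25 and Mir106b share the host Mcm7, and Mir30e and Mir30c-1 share Nfyc, so the 20 loci are not separate units. Messenger RNA was not measured in these libraries, so the levels of Pank1, Pank2 and Pank3 are not known.

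The pups also differed in loci of other cell types, and the part of this in the ratio of Mir107 was not tested. The tissue carried neuronal miRNAs, with 7 of 9 listed loci detected. The list summed to 42307 CPM in pup 3 and 47175 CPM in pup 1, but its loci differed in direction. Mir137, Mir132, Mir138-1 and Mir138-2 were lower in pup 3, while Mir128-1 and Mir128-2 were higher, at log2 ratios of 0.07 and 0.16. Mir124a-1 had 21 counts in pup 3 and 15 in pup 1, and Mir124a-2 and Mir124a-3 were not detected. These rows hold uniquely placed reads, so they do not show the level of the mature miRNA. All 3 multiciliated loci were detected, with sums of 4920 CPM in pup 3 and 8186 CPM in pup 1, and all 5 epithelial loci, with 9324 CPM in pup 3 and 3676 CPM in pup 1. Blood vessel loci (3 of 3 detected) summed to 39382 CPM in pup 3 and 34960 CPM in pup 1. Most of this was Mir126a, with 35573 CPM in pup 3 and 30517 CPM in pup 1. The other vessel loci were lower in pup 3: Mir143 had 3698 CPM there and 4307 CPM in pup 1, and Mir145a 111 and 136 CPM. In pup 3, red blood cell loci (3 of 3 detected) had 71.3 CPM, white blood cell loci (2 of 2 with a row) 355 CPM, hindbrain and spinal cord loci (2 of 2) 254 CPM, and the liver's Mir122 63.0 CPM. In pup 1 the same lists had 88.2, 328, 227 and 48.1 CPM. Of 3 muscle loci 1 was detected, Mir206, with sums of 4.53 CPM in pup 3 and 7.29 CPM in pup 1. Mir1a-1 and Mir133a-1 were at 0. Reads with several mapping positions are in none of these rows, so a count of 0 does not show that a mature miRNA was absent. In whole tissue, fewer cells of a type and less RNA per cell cannot be told apart.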

How the data were processed

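The authors deposited raw counts of reads per miRNA gene for each library, unnormalized, on assembly mm10 with annotation release M4, per the text deposited with the files. For the aligner and counter, names and versions were not given in the sources used here. The 3 count columns were read from their values as both strands, gene strand and opposite strand. The gene strand was used, with totals of 2427066 in pup 3 and 2742746 in pup 1. The 4 rows that name no gene held 58.7% of the reads of pup 3 and 58.8% of those of pup 1, and stayed out of the totals. GENCODE M21 (GRCm38) named 1894 of 1973 identifiers; the other 79 had at most 1 count. RefSeq sequences (GRCm38.p6) matched all 3 family loci.

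Percents and CPM, ratios of CPM + 1, exact intervals at 95% and Fisher's exact tests with Benjamini-Hochberg adjustment at 0.05 were computed from these counts. A quasi-likelihood test in edgeR needs a contrast, which 1 group lacks, so edgeR gave TMM factors and the common dispersion. The dispersion was estimated on library totals, without the TMM factors. The exact binomial test was checked on simulated counts with counting error only. That check did not include variation between animals, and Fisher's exact test was not run in it. The loci named are the family, the 3 nearest to each in level, and the lists. Mir128-1, Mir153, Mir218-2, Mir33, Mirlet7c-2 and Mir99a were named after their values were seen. Members and lists were chosen with earlier results of these data known. The pups are separate animals. Alternatives were both strands, TMM and DESeq2 scales, other totals, filters, pseudocounts and run lengths, and leaving out a replicate. Tools were Python 3.11.15, scipy 1.17.1, pandas 2.3.3, Biopython 1.88, RNAfold 2.7.2, R 4.3.3, edgeR 4.0.16 and DESeq2 1.42.0.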

Additional observations from a re-analysis of the deposited data

Results flagged for a closer look

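Counts on the strand opposite Mir497b numbered 2296 in pup 3 and 3644 in pup 1, far above the 3 counts that a count of 0 allows, while its own strand had 0 and 1. The miR-15/16 relative Mir497 lies there on the other strand and has no row of its own, so its counts are in no value of the relatives above.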

How the results depend on the processing

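The calls at the family's loci did not change under any alternative run: Mir107 stayed lower in pup 3, and Mir103-2 and Mir103-1 did not pass. The ratio of Mir103-1 turned to 0.05 with TMM sizes and 0.10 with DESeq2 size factors, from 16 counts in all. The family's summed log2 ratio, -0.52 with totals, was -0.27 with TMM sizes and -0.21 with DESeq2 size factors, which differ by construction in the scale. Without Mir99a in the total, mean CPM was 2434 for Mir107, 41.9 for Mir103-2, 4.22 for Mir103-1 and 2480.2 for the family (main values 1784, 30.7, 3.08 and 1818). With all reads as the total it was 735.5, 12.6, 1.27 and 749. Leaving out a replicate gave 1464 to 2104 CPM for Mir107, 26.0 to 35.4 for Mir103-2, 2.88 to 3.28 for Mir103-1, 1493 to 2143 for the family, and 98.1 to 98.2% for the share of Mir107. The number of called loci, 226 with totals (41 higher, 185 lower in pup 3), was 181 with DESeq2 size factors (98 higher, 83 lower), 186 with TMM sizes (82 and 104), and 212 to 235 with both strands, without Mir99a or with other filters. Of loci that share a run of 20 bases with another hairpin, which include the 3 of the family, 8.07% were detected, and 11.1% with a minimum of 1 count. Of loci that share none, these were 26.5% and 43.9%, over the 1894 named loci and not only those matched to RefSeq. Of 69 values under alternatives, 56 kept direction and call or moved within their error. Mir103-1 could not be tested with a minimum of 50 summed counts. No paired analysis was possible because there is 1 group. Counts of 160 at Mir103-2 and 16 at Mir103-1 limit their ratios.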
